A study of Mus musculus with 12 samples.

Results

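The genes described are 10 cadherins of mouse hippocampal cultures: the type I cadherins Cdh2 and Cdh4, the type II cadherins Cdh6, Cdh8, Cdh9, Cdh10, Cdh11, Cdh12 and Cdh20, and the truncated cadherin Cdh13. They were taken by symbol from the 48709 genes of the count files and were chosen by their measured values with the comparison of mimic and control in view, so their differences between the groups are a description. Where such a gene is said to be called, this is its outcome in the fit over all genes, given to place it among them and not as evidence. All 10 passed the filter on low counts. RNA was sequenced from primary hippocampal neuron cultures of CD1 mouse embryos at embryonic day 17, which also hold glial cells. According to the methods of the study, the hippocampi of a litter were pooled for a preparation. At day 10 in vitro all cultures received lipid nanoparticles, added with ApoE4 according to the methods, which carried a miR-148a-3p mimic in 6 samples and a negative control oligonucleotide in the other 6, and all were harvested at day 12, after 48 h. MiR-148a-3p belongs to a circulating microRNA signature, and the design asks how the transcripts of neuronal cultures respond to more of it. The labels do not say whether the 6 samples of a group came from separate preparations, so the errors and p-values measure only the spread between these samples, which may be technical.

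Classical cadherins are single-pass membrane proteins whose extracellular repeats bind calcium and hold neighbouring cells together, mostly by pairing with the same or a closely related cadherin on the other cell. Their cytoplasmic tail binds beta-catenin and p120-catenin, and alpha-catenin couples this complex to actin. Type I and type II cadherins differ in the repeat that makes the adhesive contact. In the hippocampus cadherins sit at synapses and at contacts between glial cells, and combinations of type II cadherins are known to mark particular circuits. Cdh13, also called T-cadherin, is held in the membrane by a lipid anchor and has no cytoplasmic tail, so the name classical cadherin does not strictly apply to it.

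The oligonucleotides are shown first, with their seed, bases 2 to 8 from the 5′ end, in capitals, because the seed is the part through which a microRNA recognises a transcript. The mimic has the mature sequence that RefSeq gives for mmu-miR-148a-3p, encoded by Mir148a at chr6:51269829-51269850 on the minus strand (GRCm38.p6). No mature mouse microRNA in RefSeq matches the negative control, whose sequence comes from the study's list of reagents. Because the control is named a siRNA in the series description, every value for its seed assumes that the listed oligonucleotide was used in these cultures.
miR-148a-3p mimic: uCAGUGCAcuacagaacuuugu
negative control: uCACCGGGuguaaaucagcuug

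The longest annotated 3′ UTR of each cadherin was searched for 7-base matches to the mimic, either TGCACTG, opposite bases 2 to 8, or GCACTGA, opposite bases 2 to 7 with an A after them. Of the 10 cadherins, 3 held a match, Cdh20, Cdh4 and Cdh6. Over all 15082 tested genes with a 3′ UTR the share was 21.9%, and their median 3′ UTR length was 1173 bases. The windows of 26 bases around these matches, read on the strand of the gene in mm10, are given with the match in capitals.
Cdh20, chr1:104995156-104995181, plus strand: agaaaagctgcctcgTGCACTGtaga
Cdh4, chr2:179897330-179897355, plus strand: ggggcagaaaggcagGCACTGAccgg
Cdh4, chr2:179897470-179897495, plus strand: acaacagaagtcccaGCACTGAtgaa
Cdh6, chr15:13032964-13032989, minus strand: ggaaagaaatgactaGCACTGAgatg
Cdh6, chr15:13031207-13031232, minus strand: aaggttgtttcaagaGCACTGAtgcc

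The Cdh20 match starts 786 bases into a 3′ UTR of 1096 bases. The 3′ UTR of Cdh4 (3455 bases) holds its matches 1427 and 1567 bases after the stop codon, and that of Cdh6 is the longest of the 10, with 5499 bases. No cadherin held the 8-base match TGCACTGA, which occurred in 4.15% of the 3′ UTRs. When the 6-base match GCACTG, which both 7-base words contain, was counted as well, Cdh2 joined, giving 4 of 10 against 37.6% of all 3′ UTRs. For the negative control, the match CCGGTGA was found in Cdh4 alone, against 4.42% of 3′ UTRs with that word or CCCGGTG. Cdh20 is the only 1 of the 10 among the targets that the study lists as predicted for miR-148a-3p. A match is a word in the sequence, not a site shown to be bound.

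Library totals lay between 20018234 counts in control replicate 1 and 37149112 counts, and levels are given as CPM, the counts scaled to a common library total by the TMM method. Over all genes, 4182 of 18847 tested passed an edgeR adjusted p under 0.05, which was 22.2%, with 11.5% higher and 10.7% lower in mimic. Control replicates 1 and 2 stood apart from the other 4 controls. Over 13513 genes the chi-square per degree of freedom between pairs of libraries was 23.7 to 39.4 for control replicate 1 and 9.59 to 20.9 for control replicate 2 against control replicates 3 to 6. It was 8.27 between control replicates 1 and 2, 1.73 to 8.70 among control replicates 3 to 6 and 2.07 to 9.34 among the mimic libraries. Values without control replicate 1, and without both, are given for the 10 cadherins and for part of the other genes and lists. Neuron markers were present in all libraries, with summed CPM of 7412 ± 275 in control against 7080 ± 110 in mimic (SD, n = 6 each; exact permutation p = 0.0314, two-sided, 0.0366 after Benjamini-Hochberg adjustment over 7 marker lists). Of the 8 neuron markers, 2 were called lower, Tubb3 (802 to 644 CPM) and Stmn2 (1750 to 1521 CPM), which lost more CPM than the whole sum, while 4 of 8 lay above 0 and the median log2 fold change was 0.017. The endothelial marker Cldn5 was the only marker of the 7 lists at 0 in 6 or more libraries. All 7 lists were chosen with earlier results of these data known, so the p-values of their sums are a description.

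Of the 10 cadherins, 2 were called higher (Cdh20 and Cdh11), 1 was called lower (Cdh2) and 7 were not called, beside the 22.2% called over all genes. The log2 fold change of mimic over control was above 0 in 5 and below 0 in 5, with a median of -0.0021 beside -0.012 over all tested genes. The median absolute log2 fold change was 0.11, and it was 0.12 over all tested genes. Most of these cadherins therefore had small differences, and Cdh20 stood far from the other 9. In 1 of the 10, Cdh20, every mimic library lay above every control library, a pattern of 7.43% of all tested genes. In 1 of the 10, Cdh2, every mimic library lay below, a pattern of 5.83%, and 13.3% of all genes had either pattern. Without control replicate 1, 6 of the 10 were called, 3 in each direction, while over all genes the share called without that library was 27.4%, or 5150 genes. Without control replicates 1 and 2, an alternative chosen after seeing the data, 6 of the 10 were called as well, beside 31.3% of all genes. In that fit the log2 fold change was 1.63 for Cdh20, -0.24 for Cdh2, 0.16 for Cdh4, 0.087 for Cdh11, -0.15 for Cdh8 and -0.33 for Cdh12, the 6 that were called, and it lay between -0.040 and 0.017 for the other 4.

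**Figure D1:**
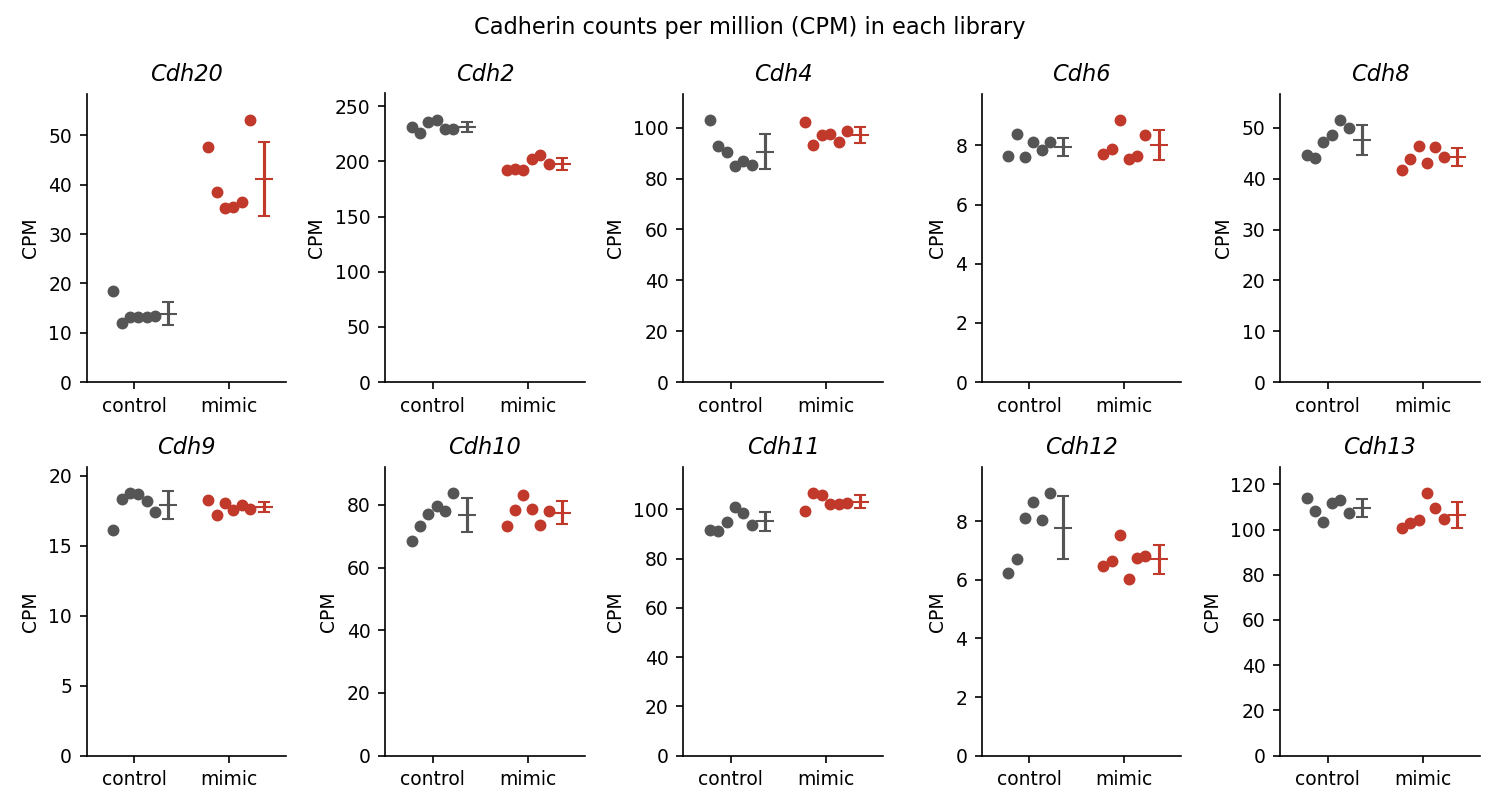
Level in CPM (vertical axes, from 0) of the 10 cadherins in the 6 control (grey) and 6 mimic (red) libraries; each point is a library and the bar beside the points is the mean ± SD. Cdh20 runs from 12.0 to 18.4 CPM in control and from 35.2 to 53.1 CPM in mimic, Cdh2 is below all controls in every mimic library, and the groups overlap in the other 8.

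Cdh20, a type II cadherin, lies at chr1:104768529-104995481 on the plus strand (mm10; ENSMUSG00000050840). The 6 control libraries held 18.4, 12.0, 13.2, 13.2, 13.1 and 13.3 CPM, and the 6 mimic libraries held 47.6, 38.5, 35.2, 35.5, 36.5 and 53.1 CPM. The groups were far apart, with control replicate 1 above the other controls and mimic replicates 1 and 6 above the other mimic libraries. The mean was 13.9 ± 2.28 CPM in control against 41.1 ± 7.48 CPM in mimic (SD, n = 6 each), a ratio of 2.98 and a log2 fold change of 1.57 (SE 0.12, 95% interval 1.32 to 1.83). This placed Cdh20 at rank 12 of the 2163 genes called higher. Without control replicate 1 the log2 fold change was 1.66, and leaving out any 1 library kept it between 1.49 and 1.66. Its 3′ UTR holds the TGCACTG match shown above.

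The genes whose pattern over the 12 libraries lay closest to that of Cdh20 were Itga2, Dio2 and Hif3a, out of 11650 genes compared. Likeness was measured as the root mean square difference in log2 CPM after subtraction of each gene's control mean, and it came to 0.206 for Itga2, an integrin subunit that binds collagen, 0.247 for Dio2, the deiodinase that activates thyroid hormone, and 0.260 for Hif3a, a hypoxia-inducible factor subunit. The difference between the groups stays in this measure, so it favours genes with a log2 fold change near that of Cdh20. The log2 fold changes were 1.40 for Itga2, 1.83 for Dio2 and 1.80 for Hif3a. Itga2 went from 2.17 ± 0.149 to 5.76 ± 0.930 CPM and Hif3a from 1.67 ± 0.291 to 5.84 ± 0.605 CPM (SD, n = 6 each). Dio2 is expressed at a higher count level, with 60.4 ± 8.51 CPM in control against 215 ± 21.5 CPM in mimic (SD, n = 6 each).

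Several marker lists differed between the same libraries. Because the lists were chosen with earlier results of these data known, their p-values are a description and not independent evidence. In cultures sequenced as a whole, a change in the number of cells of a type and a change in RNA per cell cannot be told apart. The 8 oligodendrocyte lineage markers summed to 391 to 679 CPM in control and 767 to 961 CPM in mimic (exact permutation p = 0.00216, two-sided, the smallest that 924 relabellings can give, 0.00505 after adjustment), with 5 of 8 called higher, beside 11.5% of all genes. The 5 were Olig1, Olig2, Sox10, Pdgfra and Cspg4, which mark precursors and the whole lineage. The 6 dividing cell markers, all called higher, summed to 175 ± 14.9 CPM in control against 350 ± 8.18 CPM in mimic (SD, n = 6 each; exact permutation p = 0.00216, 0.00505 after adjustment). The astrocyte markers summed to 5187 ± 163 and 5862 ± 173 CPM (SD, n = 6 each; exact permutation p = 0.00216, 0.00505 after adjustment), with 5 of 8 called higher and Gfap called lower. Slc1a3, a glutamate transporter, went from 913 to 1815 CPM, more than the difference of the whole sum, whereas Gfap went from 1362 to 731 CPM.

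The summed mesenchymal and endothelial markers were lower in mimic. The mesenchymal sum was 201 to 268 CPM in control and 98.1 to 226 CPM in mimic (exact permutation p = 0.00866, 0.0121 after adjustment), with 2 of 8 genes called lower, Acta2 and Tagln, beside 10.7% of all genes, and 2 of 8 above 0 in log2 fold change. The endothelial sum was 57.4 to 77.9 CPM in control and 36.9 to 60.7 CPM in mimic (exact permutation p = 0.00433, 0.00758 after adjustment), with 2 of 5 tested genes called lower, and most of it came from Kdr. The endothelial markers Pecam1, Tek and Flt1 were near the floor, reaching at most 1.03, 0.255 and 0.979 CPM in any library. The microglia sum averaged 12.4 CPM in control and 12.3 CPM in mimic (exact permutation p = 0.978), but 2 of 7 genes were called lower, C1qa and C1qb, 5 of 7 lay below 0, and the median log2 fold change was -0.26. The mimic sum was highest in replicate 2, with 19.4 CPM, of which Csf1r made up 9.34 CPM.

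Cdh20 was highest in the libraries with the most Olig1 and Olig2, while the sum of the lineage markers other than Olig1 peaked in other libraries. Olig1, a transcription factor of that lineage, was at 594 CPM in control replicate 1 and at 306 to 339 CPM in the other 5 controls, and Cdh20 was highest in control replicate 1 as well. Among the mimic libraries, replicates 6 and 1 were the highest for both genes, with 834 and 829 CPM of Olig1. Olig2 was likewise highest in control replicate 1, with 41.2 CPM, and in mimic replicates 1 and 6, with 61.5 and 61.4 CPM. The orders differed in other libraries. Mimic replicate 3, the lowest mimic library for Olig1 and Cdh20, had 60.2 CPM of Olig2. Control replicate 2 was at rank 2 of the controls for Olig1, with 339 CPM, and was the lowest for Cdh20. The sum of the 7 markers other than Olig1 was highest in control replicate 6, with 95.8 CPM beside 85.4 CPM in control replicate 1, and in mimic replicate 3, with 134 CPM, the library in which Cdh20 was lowest of the mimic group. As a share of these markers, Cdh20 amounted to 3.10 to 4.31% of the Olig1 level in control and to 5.27 to 6.37% in mimic, and to 2.71 to 3.37% of the summed lineage markers in control and 4.48 to 5.53% in mimic, so that both ranges were apart. Olig1 made up most of that sum in every library (594 of 679 CPM in control replicate 1), so both ratios largely restate each other. Relative to the dividing cell markers the groups overlapped, with 6.80 to 11.7% in control and 10.2 to 14.8% in mimic. The part of these markers in the level of Cdh20 was not tested.

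**Figure D2:**
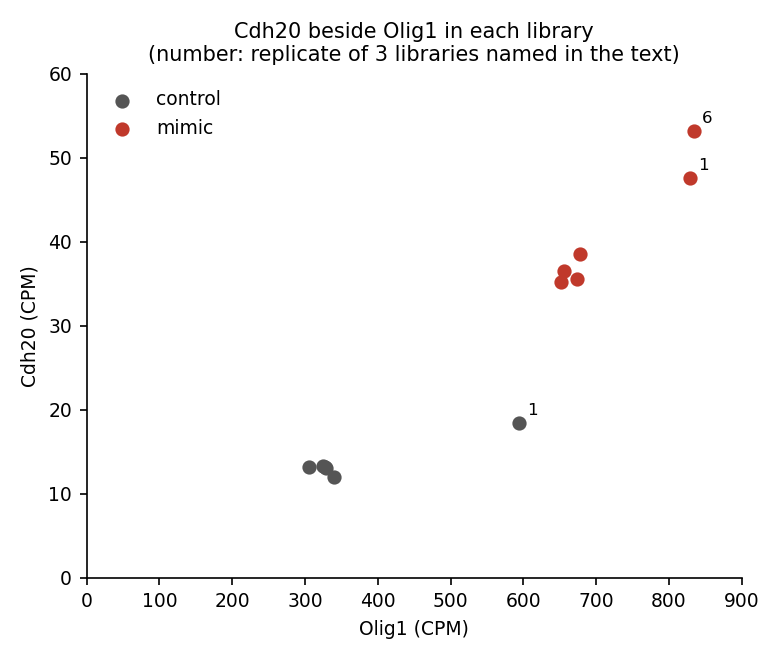
Cdh20 (vertical axis, CPM) against Olig1 (horizontal axis, CPM) in the 6 control (grey) and 6 mimic (red) libraries, each point a library. Control replicate 1, with 594 CPM of Olig1, has 18.4 CPM of Cdh20, whereas the mimic libraries, with 652 to 834 CPM of Olig1, have 35.2 to 53.1 CPM of Cdh20.

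Cdh2, or N-cadherin, is the main type I cadherin of neurons and is also made by astrocytes and mesenchymal cells. Its levels were 231, 225, 236, 238, 230 and 229 CPM in control and 193, 193, 192, 202, 205 and 198 CPM in mimic. Every mimic library lay below every control library, and the spread within each group was small. The mean was 231 ± 4.57 CPM in control against 197 ± 5.49 CPM in mimic (SD, n = 6 each), a difference of -14.7% and a log2 fold change of -0.23 (SE 0.030, 95% interval -0.29 to -0.17), and -0.23 also without control replicate 1. Relative to the summed neuron markers Cdh2 amounted to 3.02 to 3.24% in control and to 2.66 to 2.89% in mimic. Relative to the astrocyte markers it amounted to 4.27 to 4.62% and 3.12 to 3.50%, and relative to the mesenchymal markers the groups overlapped. The part of these cell types in the level of Cdh2 was not tested.

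Cdh4, or R-cadherin, is the other type I cadherin (ENSMUSG00000000305, chr2:179442431-179899373, plus strand). Its control libraries ran from 84.9 over a median of 88.7 to 103 CPM and its mimic libraries from 93.3 over 97.3 to 102 CPM. The highest control value was that of control replicate 1, which lay above all 6 mimic libraries. The log2 fold change was 0.10 (SE 0.045, 95% interval 0.0062 to 0.20) and was not called. Without control replicate 1 it was 0.14 and was called. Cdh4 holds GCACTGA, complementary to the mimic, in 2 places and CCGGTGA, complementary to the negative control, in 1.

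Cdh11, also called OB-cadherin and abundant in mesenchymal cells, was the type II cadherin with the highest level per kb of merged exons in control (ENSMUSG00000031673, chr8:102632095-102785642, minus strand). Per kb of the longest transcript, Cdh10 was above Cdh11, with 20.4 against 16.8 CPM per kb in control. In CPM, Cdh11 ran from 91.3 over a median of 94.2 to 101 CPM in control and from 99.2 over 102 to 106 CPM in mimic. The lowest mimic library, replicate 1, fell inside the control range and the other 5 lay above it. The log2 fold change was 0.11 (SE 0.035, 95% interval 0.041 to 0.19) and was called higher, as it was without control replicate 1 with 0.10, but the call was lost without mimic replicate 2 (0.11) and when no filter on low counts was set (0.12). The mesenchymal marker sum, 229 ± 22.9 CPM in control against 143 ± 46.7 CPM in mimic (SD, n = 6 each), was lower in mimic mainly through Acta2 and Tagln, and the part of mesenchymal cells in the level of Cdh11 was not tested.

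Cdh6, Cdh9 and Cdh10 lie on chromosome 15 and are type II cadherins of hippocampal neurons. Cdh9, known for its role in the synapses that dentate granule cells make in area CA3, ran from 16.2 over 18.2 to 18.8 CPM in control and from 17.2 over 17.8 to 18.2 CPM in mimic (ENSMUSG00000025370, chr15:16728756-16857094, plus strand). Cdh10 ran from 68.4 over 77.6 to 83.7 CPM and from 73.3 over 78.2 to 83.2 CPM (ENSMUSG00000022321, chr15:18818947-19014236, plus strand). Cdh6 was among the 2 lowest, from 7.62 over 7.97 to 8.37 CPM and from 7.54 over 7.80 to 8.87 CPM (ENSMUSG00000039385, chr15:13028701-13173675, minus strand). In all 3 genes the groups overlapped over most of their range. The log2 fold changes were -0.015 for Cdh9 (SE 0.045, 95% interval -0.11 to 0.079), 0.014 for Cdh10 (SE 0.047, interval -0.086 to 0.11) and 0.011 for Cdh6 (SE 0.058, interval -0.11 to 0.13). Without control replicate 1 they were -0.041, -0.016 and 0.0023, so that the sign of Cdh10 turned.

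Cdh8 and Cdh12 are type II cadherins of the brain. Cdh8 (ENSMUSG00000036510, chr8:99024471-99416471, minus strand) ran from 44.0 over 47.9 to 51.6 CPM in control and from 41.7 over 44.1 to 46.4 CPM in mimic. Cdh12 (ENSMUSG00000040452, chr15:20449265-21589533, plus strand) ran from 6.21 over 8.08 to 8.95 CPM and from 6.04 over 6.68 to 7.53 CPM. In both genes control replicates 1 and 2, which had the fewest total counts, fell inside the mimic range, while the other 4 control libraries lay above all 6 mimic libraries. The log2 fold change was -0.11 for Cdh8 (SE 0.045, 95% interval -0.20 to -0.014) and -0.23 for Cdh12 (SE 0.086, interval -0.41 to -0.045), and neither was called. Without control replicate 1 both were called lower, with -0.13 for Cdh8 and -0.28 for Cdh12, and Cdh12 was also called without control replicate 2, with -0.26. An antisense transcript, Gm15679, shares 23 exon bases with Cdh8 and had a mean of 0.417 counts, and no other of the 10 shares exon bases with an annotated gene.

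Cdh13, which also serves as a receptor for adiponectin, lies at chr8:118283733-119324921 on the plus strand (ENSMUSG00000031841). It ran from 103 over 109.8 to 114 CPM in control and from 101 over 105 to 116 CPM in mimic. The highest and the lowest value both came from mimic libraries. The log2 fold change was -0.041 (SE 0.040, 95% interval -0.12 to 0.042), and -0.030 without control replicate 1.

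**Figure D3:**
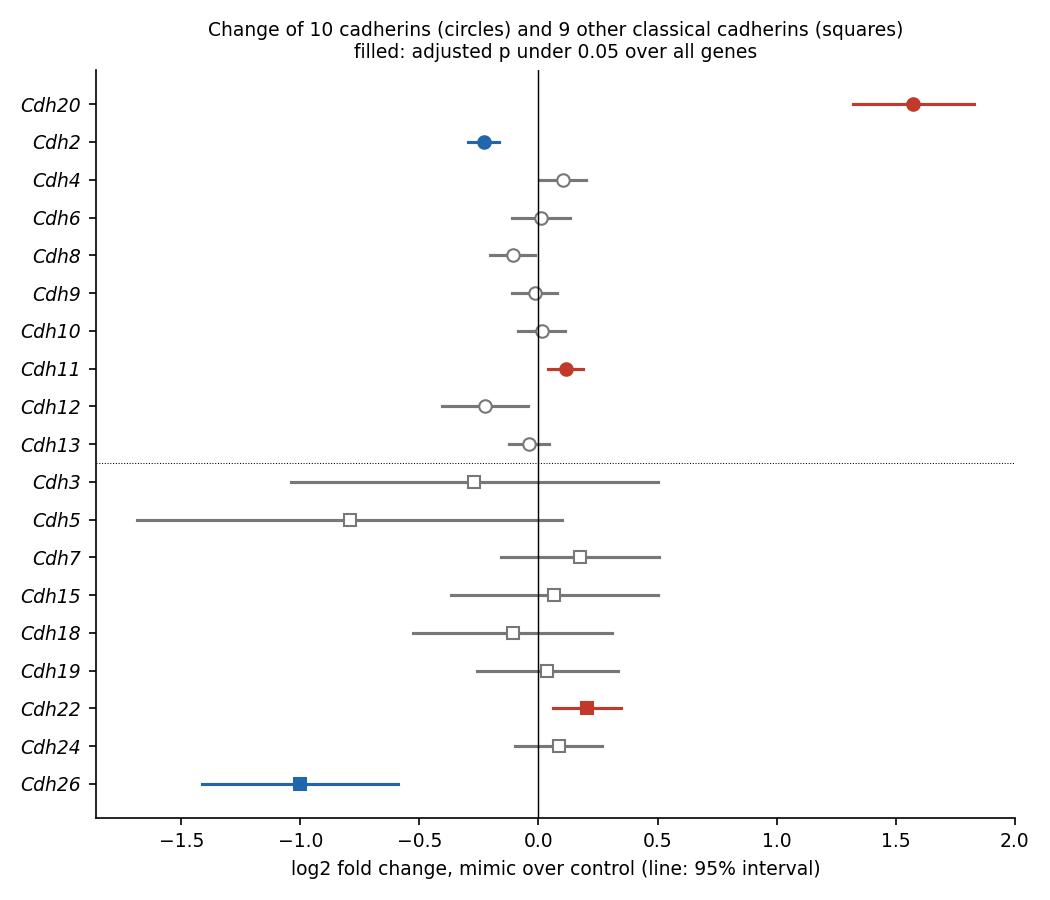
Log2 fold change of mimic over control (horizontal axis, points) with its 95% interval (lines) for the 10 cadherins (circles) and the 9 other classical cadherins tested (squares); filled symbols passed an adjusted p under 0.05 over all genes, red higher and blue lower. Cdh20 at 1.57 lies far to the right of the rest, Cdh2, Cdh8, Cdh12 and Cdh26 lie left of 0 with their whole interval, and the genes with few counts, such as Cdh3 and Cdh5, have the widest intervals.

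Levels of different genes were compared as CPM per kb of merged exons. In control the order was Cdh2 (28.7 ± 0.567), Cdh4 (12.5 ± 0.943), Cdh11 (10.7 ± 0.442), Cdh13 (9.75 ± 0.364), Cdh10 (7.64 ± 0.529), Cdh8 (6.16 ± 0.381), Cdh9 (5.06 ± 0.279), Cdh20 (3.46 ± 0.568), Cdh12 (1.23 ± 0.172) and Cdh6 (0.881 ± 0.0335; SD, n = 6 each). Neighbours in this order did not overlap, except Cdh9 and Cdh20, because of the high Cdh20 value of control replicate 1. In mimic Cdh20 stood at rank 4, with 10.2 ± 1.87 CPM per kb (SD, n = 6), and its range overlapped those of Cdh4 and Cdh11 above it and Cdh13 below it. Cdh12 and Cdh6 overlapped in mimic as well.

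The order depended on the length used. With the longest transcript in place of the merged exons, 6 of the 10 kept their rank in control, Cdh13 moved from rank 4 to 2, Cdh10 from 5 to 3, Cdh11 from 3 to 4 and Cdh4 from 2 to 5. Cdh2 was first and Cdh6 last with both lengths. Summed over the 10 genes the level per exon length was 86.0 ± 1.30 CPM per kb in control and 89.5 ± 1.68 CPM per kb in mimic (SD, n = 6 each). Cdh20 made up 4.02 ± 0.632% of this sum in control and 11.4 ± 1.88% in mimic, and Cdh2 made up 33.3 ± 0.425% and 27.3 ± 0.832% (SD, n = 6 each). The type I cadherins together made up 47.9% of the sum in control and 42.3% in mimic, and the 7 type II cadherins 40.8% and 47.1%, shares that carry the differences of Cdh20 and Cdh2.

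**Figure D4:**
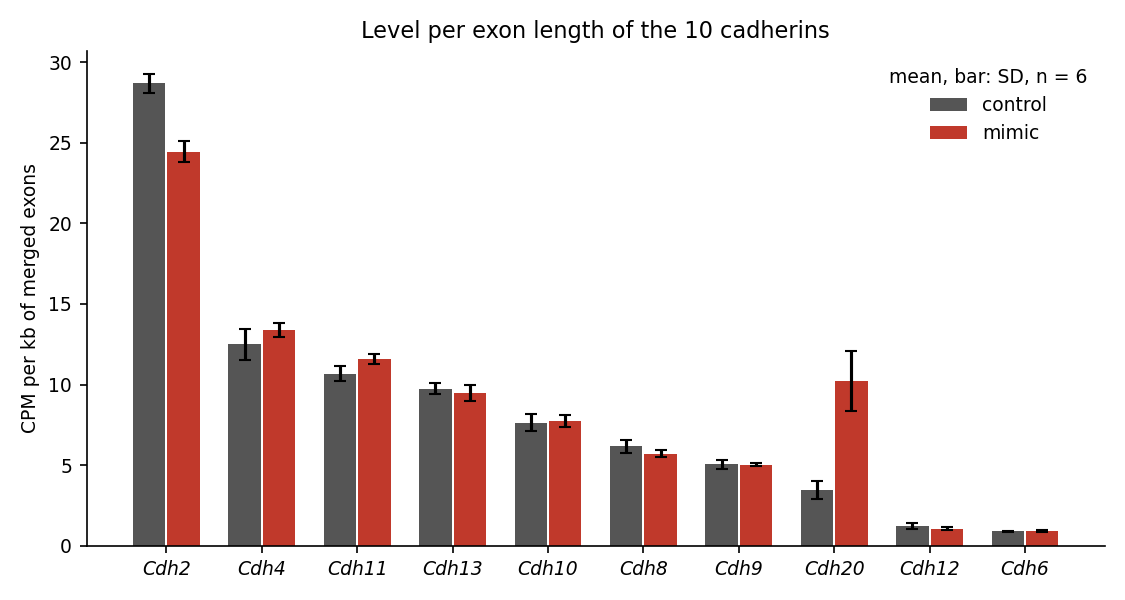
Mean level (bars, CPM per kb of merged exons, axis from 0; error bars SD, n = 6 libraries) of the 10 cadherins in control (grey) and mimic (red), in the order of the control means. Cdh2 is the highest in both groups, and Cdh20 goes from 3.46 in control, rank 8, to 10.2 in mimic, rank 4.

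Several of these genes lie near other classical cadherins. Cdh20 is followed on chromosome 1 by Cdh7, 4.99 Mb away, and Cdh19, a further 0.748 Mb on. Those neighbours were at about 1 CPM, and their log2 fold changes were 0.18 for Cdh7 (SE 0.16) and 0.037 for Cdh19 (SE 0.14), neither called. On chromosome 15 the genes Cdh6, Cdh9, Cdh10, Cdh12 and Cdh18 follow each other with gaps of 3.56, 1.96, 1.44 and 0.959 Mb, and none of the 5 was called. Cdh8 and Cdh11 are neighbours on chromosome 8, 3.22 Mb apart, with log2 fold changes of -0.11 and 0.11.

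The 10 other classical cadherins are the rest of the family beside the genes chosen above, so their list is not independent of that choice, and they were mostly at low level. Cdh1, the epithelial E-cadherin, was under the filter with a mean of 2.33 counts per library. Of the 9 tested, 1 was called higher, 1 was called lower and 7 were not called, or 22.2%, beside 22.2% over all genes. Their median log2 fold change was 0.037. Cdh26 had 0.985 ± 0.170 CPM in control against 0.490 ± 0.149 CPM in mimic (SD, n = 6 each), with all mimic libraries below all controls and a ratio of 0.500 (SE of the log2 fold change 0.19, edgeR adjusted p = 0.00103), at a mean of 21.9 counts. Cdh22, a type II cadherin of the brain, went from 13.0 ± 1.40 to 14.9 ± 0.839 CPM (SD, n = 6 each), 0.20 on the log2 scale (with SE 0.067 and edgeR adjusted p = 0.0373). Its call was lost on leaving out control replicate 3, 4 or 5 or mimic replicate 1, 3, 4, 5 or 6, with adjusted p-values from 0.0503 to 0.0940. Cdh22, Cdh19 and Cdh5 each hold 1 match of 7 bases to the mimic in the 3′ UTR. Over all tested genes with a 3′ UTR, 21.9% hold 1 or more such matches.

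The others were not called. The log2 fold change was -0.79 for Cdh5, the endothelial VE-cadherin (SE 0.42, edgeR adjusted p = 0.210), and -0.27 for Cdh3, P-cadherin (SE 0.37, edgeR adjusted p = 0.668), both at under 10 counts per library on average. It was 0.085 for Cdh24 (SE 0.086), the only 1 of these at a level like that of Cdh22, 0.067 for Cdh15, the muscle cadherin (SE 0.21), and -0.11 for Cdh18 (SE 0.20). Leaving out 1 library gave 0.038 to 0.16 for Cdh24. Without both control replicates 1 and 2, Cdh24 was at 0.21 and was called higher (edgeR adjusted p = 0.00875). For Cdh3, Cdh5, Cdh7, Cdh15, Cdh18 and Cdh19, whose SEs ran from 0.14 to 0.42, a difference of the size of that of Cdh2 was not detectable at this depth.

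Catenins bind the cytoplasmic tail or belong to the complex formed there. Of 9 tested, 0 were called higher and 4 lower, beside 11.5% and 10.7% of all genes, with a median log2 fold change of -0.074, and without control replicate 1 the numbers were 2 and 4. Jup, or plakoglobin, which can take the place of beta-catenin, fell from 48.8 ± 4.48 to 39.9 ± 2.51 CPM (SD, n = 6 each; -0.29 on the log2 scale with SE 0.058, edgeR adjusted p = 0.00143), with no overlap of the groups. Arvcf, of the p120 family, fell by 0.21 on the log2 scale (with SE 0.060 and edgeR adjusted p = 0.0164). Ctnna2, the neuronal alpha-catenin, fell by 0.12 (SE 0.039, edgeR adjusted p = 0.0370), a call lost without any 1 of control replicates 3 to 6 or of the 6 mimic replicates (edgeR adjusted p from 0.0511 to 0.0890) and without the filter on low counts (0.0784). The other catenin called lower was Ctnna3, at a mean of 35.3 counts. Ctnnb1, beta-catenin itself, was at 1061 CPM in control and its log2 fold change was 0.0056 (SE 0.028, edgeR adjusted p = 0.923).

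The list of junction partners holds genes of the adherens junction outside the cadherin-catenin complex. Of 14 tested, 2 were called higher and 6 lower, beside 11.5% and 10.7% of all genes, with a median log2 fold change of -0.070. Ajuba, a LIM domain protein that binds alpha-catenin, was at 12.5 to 15.6 CPM in the control libraries and at 6.82 to 10.4 CPM in the mimic libraries, lower by the test (log2 change -0.74, SE 0.089, edgeR adjusted p = 9.32e-06). It is a listed predicted target as well, and its 3′ UTR holds the 8-base match TGCACTGA in 2 places. These windows are shown to set them beside that of Cdh20, which is listed too, holds a 7-base match and was higher in mimic.
Ajuba, chr14:54568216-54568241, minus strand: tccccctgtttaagTGCACTGAgcct
Ajuba, chr14:54567828-54567853, minus strand: tttgttcttttcatTGCACTGAgcat

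Ajuba holds a CCGGTGA match to the negative control as well. Of the 14 junction partners, 6 hold a 7- or 8-base match to the mimic, beside 21.9% of all tested genes with a 3′ UTR. They are Ajuba, Nectin1 and Afdn, which were called lower, and Nectin3, Cask and Magi1, which were not called. Plekha7, Vcl and Magi2 were called lower and hold no such match. Plekha7, which links p120-catenin to microtubules, fell from 30.1 ± 2.98 to 22.8 ± 2.40 CPM (SD, n = 6 each; -0.40, SE 0.072, edgeR adjusted p = 0.000568), and Nectin1, an adhesion molecule of the immunoglobulin family, fell by 0.18 on the log2 scale (with SE 0.039 and edgeR adjusted p = 0.00293). In the other direction, Lima1, or EPLIN, which ties alpha-catenin to actin, rose from 18.2 ± 0.856 to 24.3 ± 0.640 CPM (SD, n = 6 each; 0.42, SE 0.042, edgeR adjusted p = 1.17e-06). Tjp1, the scaffold ZO-1, rose from 148 ± 7.13 to 178 ± 4.78 CPM (SD, n = 6 each; 0.26, SE 0.036, edgeR adjusted p = 4.63e-05). The groups did not overlap in 8 of the 14 genes, the same 8 that were called, beside 13.3% of all genes. The other junction partners called lower were Afdn, Vcl and Magi2, with log2 fold changes of -0.17, -0.12 and -0.099.

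Of 12 tested enzymes that mature or cut cadherins, 1 was called higher and 2 lower, beside 22.2% of all genes in either direction, with a median log2 fold change of 0.055. Without control replicate 1 the number called was 5, beside 27.4% of all genes. Pcsk6, a proprotein convertase, rose from 24.8 ± 2.12 to 32.7 ± 1.39 CPM (SD, n = 6 each; 0.40, SE 0.053, edgeR adjusted p = 2.57e-05), and Pcsk5, of the same family, fell by 0.20 on the log2 scale (with SE 0.052 and edgeR adjusted p = 0.00763). The other gene called lower, Mmp3, had a mean of 6.75 counts. Adam10, the main sheddase of N-cadherin and a predicted target with an 8-base match, had a log2 fold change of -0.15 (with SE 0.062 and edgeR adjusted p = 0.105) and was not called.

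Of the 7 tested repressors of cadherin genes, Zeb1 was called higher and Zeb2 lower, beside 11.5% and 10.7% of all genes. Zeb1 rose from 102 ± 7.41 to 144 ± 7.52 CPM (SD, n = 6 each; 0.49, SE 0.049, edgeR adjusted p = 1.35e-06), with all mimic libraries above all controls. Zeb2 went from 201 ± 18.2 to 180 ± 5.28 CPM (-0.16, SE 0.051, edgeR adjusted p = 0.0285), a call lost without any 1 of control replicates 3 to 6 or mimic replicates 4 and 6 (edgeR adjusted p from 0.0527 to 0.0714). The Snai and Twist genes were at low counts and were not called, and Snai3 was under the filter. The median log2 fold change of the 7 was 0.033.

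Among cadherins of other families, the unclustered protocadherins, which have other extracellular repeats and no catenin-binding tail, had 2 of 11 called higher and 1 lower, beside the same shares of all genes, with a median log2 fold change of 0.0096. Pcdh18 rose from 7.79 ± 0.197 to 10.3 ± 0.529 CPM (SD, n = 6 each; 0.40, SE 0.053, edgeR adjusted p = 2.28e-05) and Pcdh17 rose by 0.22 on the log2 scale (with SE 0.042 and edgeR adjusted p = 0.00103). Pcdh19, whose human counterpart is an epilepsy gene, fell by 0.23 (SE 0.048, edgeR adjusted p = 0.00198).

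Of 13 large and atypical cadherins, 4 were called higher and 2 lower, beside 11.5% and 10.7% of all genes, with a median log2 fold change of 0.018. Without mimic replicate 6 the number called was 3, and 3494 of 18743 genes were called over all. Fat1, a giant cadherin of growth and polarity pathways, rose from 194 ± 12.3 to 263 ± 17.2 CPM (SD, n = 6 each; 0.44, SE 0.049, edgeR adjusted p = 3.98e-06) with no overlap of the groups. Fat3 rose by 0.12 on the log2 scale (with SE 0.035 and edgeR adjusted p = 0.0193) and Dchs1, the ligand of Fat4, by 0.19 (SE 0.062, edgeR adjusted p = 0.0343). Clstn2, a synaptic calsyntenin, fell by 0.18 (SE 0.038, edgeR adjusted p = 0.00257) and Celsr3, of the flamingo family, by 0.15 (SE 0.050, edgeR adjusted p = 0.0368). The other gene called higher, Cdh23, had a mean of 91.7 counts. The call of Dchs1 was lost without control replicate 3, 4, 5 or 6 or mimic replicate 1, 4, 5 or 6 (edgeR adjusted p from 0.0518 to 0.0893), and that of Celsr3 without control replicate 2 or 3 or mimic replicate 2, 3, 4 or 6 (0.0608 to 0.0960). Without both control replicates 1 and 2, Celsr3 was at -0.0997 and was not called (edgeR adjusted p = 0.105). The astrocyte, oligodendrocyte lineage and dividing cell marker sums given above differed between the same 6 and 6 libraries, and their part in the differences of these partner genes was not tested.

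**Figure D5:**
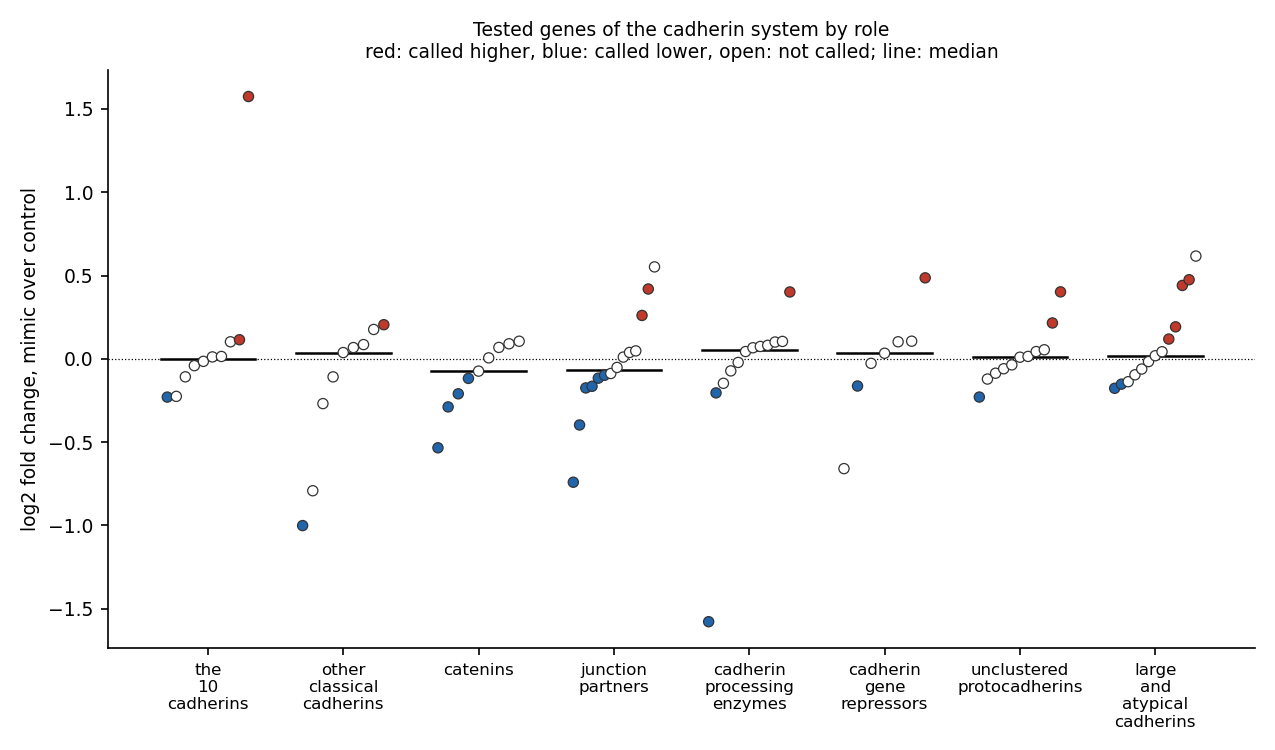
Log2 fold change of mimic over control (vertical axis) of each tested gene of the 10 cadherins and of 7 other lists of the cadherin system (columns), ordered within each list; red points were called higher, blue points lower and open points not called, and the line is the median of the list. The medians lie between -0.074 and 0.055, close to 0 in every list, and Cdh20 at 1.57 is the highest point of all.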

How the data were processed

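RNA of 6 control and 6 mimic samples was sequenced as 50 bp single-end reads from poly(A)-selected TruSeq libraries. The authors checked reads with FastQC 0.11.5, aligned them to mm10 with STAR 2.5.2b and counted reads per gene with featureCounts (Subread 1.5.1), and the deposited raw counts of each sample were used. Whether strand was used in the counting is not given in the sources used here. The deposited series table holds normalized values and was not used.

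Members and lists were chosen with earlier results of these data known. A gene was tested where 6 or more of the 12 libraries held 5 counts or more, with edgeR 4.0.16 (quasi-likelihood, glmQLFit, robust; R 4.3.3) on TMM-normalized counts, with Benjamini-Hochberg adjustment over all tested genes and a threshold of 0.05. DESeq2 1.42.0 and other settings served as alternatives. The fit was also run on simulated counts as a check of the code, and the outcome is not given here. Marker sums were compared by exact permutation over samples. Ratios of cadherins to markers were chosen after the values were seen and were not tested. Named genes were the 10 members, each tested gene of the other classical cadherins, up to 3 called genes in each direction of every other list with a mean of at least 100 counts and the largest change, and the 3 genes most like Cdh20; Ctnnb1, Ctnna3, Afdn, Vcl, Magi2, Mmp3, Adam10, Cdh23 and single marker genes were added with their values seen. Coordinates, exon lengths and 3′ UTRs came from GENCODE on mm10, and microRNA sequences from RefSeq (GRCm38.p6). Sequence of Cdh2, and the separate values of 1 marker gene that its list's sum and counts include, are not reported here.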

Additional observations from a re-analysis of the deposited data

Results flagged for a closer look

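In 92 checks of a group of 6 libraries for a value far from the others (the gap to the nearest library over the range of the group, above Dixon's 95% critical value), 5 were flagged, and chance flags about 1 in 20, or 4.6 of 92. Control replicate 1, which holds 2 of the 5, also differed from control replicates 3 to 6 over 13513 genes by a chi-square of 23.7 to 39.4 per degree of freedom, and from control replicate 2 by 8.27. Cdh20 in control replicate 1 was 18.4 CPM, above the 12.0 to 13.3 CPM of the other 5 controls. The summed oligodendrocyte lineage markers in the same library were 679 CPM, above 391 to 420 CPM in the others. Cdh7 was at 1.03 CPM in mimic replicate 1, below 1.45 to 1.58 CPM in the other mimic libraries, and Cdh15 in that library was at 0.563 CPM, below 0.840 to 0.944 CPM. Zeb1 was at 88.6 CPM in control replicate 2, below 102 to 110 CPM in the other controls.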

How the results depend on the processing

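Size factors of DESeq2 in edgeR, DESeq2 itself, no filter on low counts, a replicate block and leaving out each library in turn were tried. Cdh20 and Cdh2 kept their direction and call in all of them. The labels do not say whether the replicate numbers pair the samples. Same-numbered libraries correlated at 0.093, 0.0081, 0.026, -0.034, -0.019 and -0.038, and none correlated best with its own number. With 6 libraries per group, such weak correlations cannot settle whether samples were paired. With the replicate block, 3659 of 18847 genes and 2 of the 10 cadherins were called, without Cdh11, and 1 other classical cadherin and 1 repressor were called, without Cdh22 (edgeR adjusted p = 0.0839) and Zeb2 (0.0607). Ctnna2 lost its call as well (0.0642). The level order kept 6 ranks with the longest transcript, and 8-base matches alone left 0 cadherins with a match. Leaving out a library gave 3494 to 5150 called genes in all, 2 to 6 called cadherins, 1 to 2 other classical cadherins, 3 to 5 processing enzymes, 1 to 3 repressors and 3 to 7 large or atypical cadherins. Without both control replicates 1 and 2, chosen after seeing the data, 5950 of 19002 genes were called, with 6 cadherins, 5 processing enzymes and 5 protocadherins, and Cdh10 was at -0.038. Leaving out 1 library turned the sign of log2 fold changes near 0, whose ranges were -0.019 to 0.029 for Cdh6, -0.016 to 0.039 for Cdh10, -0.055 to 0.21 for Cdh15, -0.22 to 0.0053 for Cdh18 and -0.026 to 0.086 for Cdh19. The cause was not tested. Of the values of single genes under alternatives, 599 kept direction and call, 46 lost a call, 8 gained one and 10 changed sign. Low counts limit Cdh3, Cdh5, Cdh7, Cdh15, Cdh18, Cdh19 and Cdh26.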
